A study of Mus musculus with 20 samples.

Results

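The actin cytoskeleton genes described here are 38 named genes, taken as a fixed list from the 28030 genes that the 4 single-cell tables share, and all 38 were present. They cover actin itself, proteins that hold actin monomers, proteins that cut or cap filaments, the Arp2/3 complex with its activator, bundling proteins, myosin II chains and proteins that tie filaments to the membrane. The list also holds Vim, an intermediate filament gene. Actin is stored as monomers, mostly on thymosins and profilin, and is added to the fast-growing ends of filaments. The Arp2/3 complex starts branches, capping proteins stop growth and cofilin takes old filaments apart. In T cells this cycle drives crawling through tissue and the contact with a target cell.

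The cells came from B16-OVA tumours, a mouse melanoma engineered to make ovalbumin, 8 days after the transfer of CD8 T cells whose transgenic OT-I receptor reads an ovalbumin peptide. There were 4 groups of 1 library: TET2KO_PDL1, T cells from Tet2-/- OT-I mice with anti-PD-L1; TET2KO_CTL, such cells untreated; WT_PDL1, wild-type OT-I cells with anti-PD-L1; and WT_CTL, wild-type cells untreated. Tet2 oxidises 5-methylcytosine in DNA, and anti-PD-L1 is an antibody against PD-L1, which restrains T cells through PD-1. The labels describe the deletion in the donor mice of the T cells and give no genotype, age or number for the recipient mice. RNA and ATAC sequencing samples of the series were not analysed here.

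With 1 library per group, differences between groups have no replicate check and no test. They are given as CPM, a gene's share of the UMIs (unique molecular identifiers, 1 per captured molecule) summed over the cells of a type, in counts per 1000000. Intervals are exact 95% intervals for counting error only. Each molecule gives 1 tag at its 3′ end, so CPM needs no correction for length, although genes may differ in how well that end is captured. A gene counted as apart where 2 libraries differed by 1.5-fold or more and its 4 libraries averaged 20 CPM or more.

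Clustering, with the 38 genes left out, gave 1027 CD8 T cells in TET2KO_PDL1, 1552 in TET2KO_CTL, 1321 in WT_PDL1 and 1122 in WT_CTL, holding between 4845177 and 8225334 UMIs. Their CD8 and CD3 markers were high, and the 3 C1q genes of macrophages stood at no more than 0.114% of their macrophage level. The 4 libraries also held 176 to 404 macrophages and 50 to 929 melanoma cells. WT_CTL stood apart, since clusters 4 and 5 held 48.2% and 33.5% of its CD8 T cells, and at most 3.33% in any other library. The leading genes of cluster 5 included the mast cell genes Cma1 and Cpa3, and their source was not tested. In CD8 T cells of WT_CTL the 6 CD8 T cell markers summed to 4525 CPM, against 5668 to 6197 CPM elsewhere. Summed melanoma markers in CD8 T cells of WT_CTL were 120 CPM, against 20.3 to 37.7 CPM elsewhere. Hemoglobin genes in CD8 T cells summed to at most 657 CPM, in WT_PDL1, and at least 140 CPM, in WT_CTL. Tet2 itself was at 13.4 to 23.0 CPM in CD8 T cells of all 4 libraries, which checks no label, because a 3′ tag need not lie in the deleted part.

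A few genes made up most of the actin cytoskeleton message in CD8 T cells. The 38 genes took 5.22% of all CD8 T cell UMIs in TET2KO_PDL1, 4.74% in TET2KO_CTL, 5.08% in WT_PDL1 and 4.58% in WT_CTL. The 6 highest, Tmsb4x, Actb, Actg1, Pfn1, Tmsb10 and Cfl1, took 3.94%, 3.56%, 3.84% and 3.35% in the same order of libraries. Tmsb4x, thymosin beta 4, which binds actin monomers, had the highest level, with 18849 CPM in TET2KO_PDL1, 18375 CPM in TET2KO_CTL, 19238 CPM in WT_PDL1 and 15778 CPM in WT_CTL. Actb, beta-actin, had 6476 CPM in TET2KO_PDL1, 4749 CPM in TET2KO_CTL, 6256 CPM in WT_PDL1 and 5176 CPM in WT_CTL, so it was higher in both anti-PD-L1 libraries. Actg1, gamma-actin, had 5632, 4938, 4767 and 5630 CPM in TET2KO_PDL1, TET2KO_CTL, WT_PDL1 and WT_CTL, and stood above Actb in the untreated libraries only. Pfn1, profilin, which loads monomers onto growing ends, reached 3871 CPM in TET2KO_PDL1 and was lowest in WT_CTL, at 2558 CPM.

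The lowest levels were those of Gsn, gelsolin, a calcium-dependent cutter of filaments, at 8.05 to 17.4 CPM, and Dstn, the second depolymerising factor beside Cfl1, at 26.5 to 42.3 CPM. Was, the blood cell activator of Arp2/3, lay at 41.3 to 46.3 CPM, while the Arp2/3 subunit Arpc1b averaged 1111 CPM. The subunits themselves were not equally abundant, with mean levels between 86.5 CPM for Arpc1a and that of Arpc1b. Across the 4 libraries, the highest level of a gene was at most 1.59 times the lowest for 36 of the 38 genes. The exceptions were Capg at 2.13 times and Gsn at 2.16 times, the second on few UMIs.

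**Figure D1:**
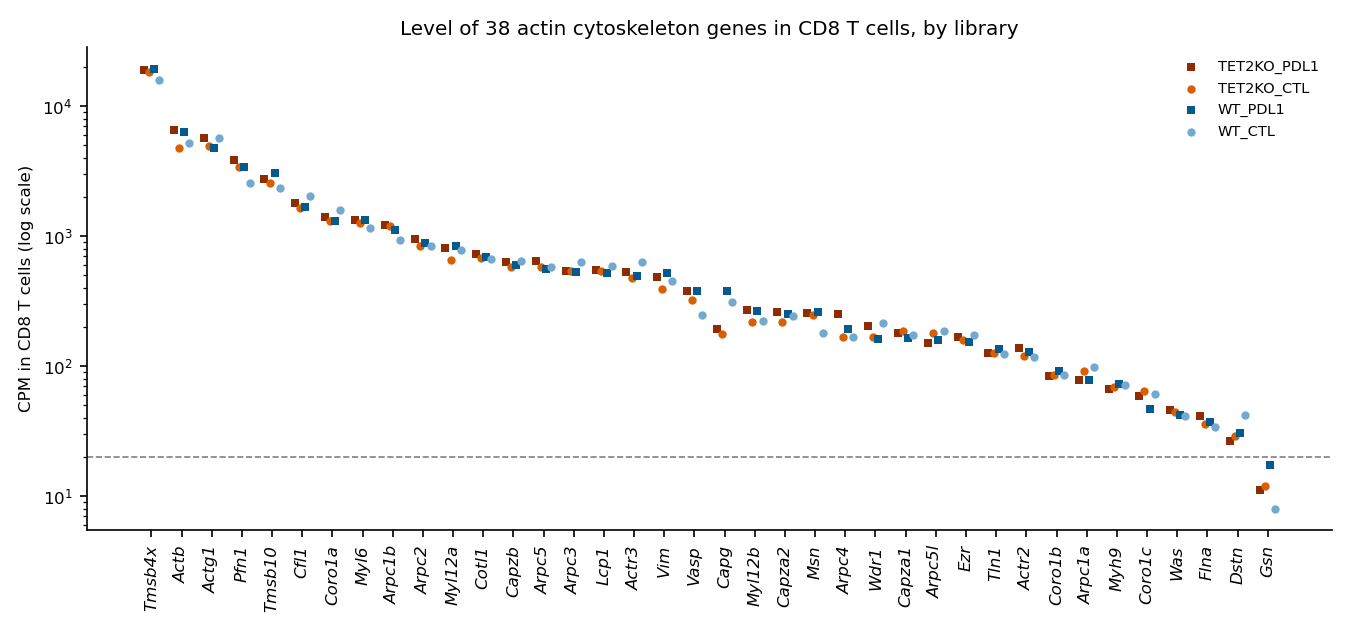
Level of each of the 38 genes in CD8 T cells (CPM, log axis), 1 point per library, genes ordered by their mean; the dashed line marks 20 CPM. Tmsb4x lies highest at 15778 to 19238 CPM, Gsn lies below the line in all 4 libraries, and the points of Capg are spread more widely than those of its neighbours.

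The 1 member apart between Tet2 knockout and wild-type CD8 T cells was Capg, which encodes a protein that caps filament ends without cutting them. It had 192.6 CPM in TET2KO_PDL1 and 176.7 CPM in TET2KO_CTL, against 376.3 CPM in WT_PDL1 and 311.0 CPM in WT_CTL. Both knockout libraries lay below both wild-type libraries. The log2 fold was -0.97 (-1.06 to -0.88) for TET2KO_PDL1 over WT_PDL1 and -0.82 (-0.92 to -0.71) for TET2KO_CTL over WT_CTL. No other of the 37 genes past the floor was apart in either comparison. Among all 4627 genes past the floor, 2.57% were apart with anti-PD-L1, 1.10% higher and 1.47% lower. Without treatment 14.7% were apart, 7.89% higher and 6.83% lower. Gsn, under the floor, had 11.2 CPM in TET2KO_PDL1 and 12.0 CPM in TET2KO_CTL, against 17.4 CPM in WT_PDL1 and 8.05 CPM in WT_CTL.

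The share of CD8 T cells with a Capg molecule was lower in the knockout libraries too. With every cell thinned to 2600 UMIs, 32.3% (29.4% to 35.3%, exact 95% binomial interval) of cells in TET2KO_PDL1 and 31.2% (28.8% to 33.7%) in TET2KO_CTL had a Capg UMI. In WT_PDL1 it was 54.5% (51.7% to 57.3%) and in WT_CTL 48.6% (45.3% to 51.9%). The same share was 74.2% to 84.9% in macrophages and 26.7% to 36.6% in melanoma cells, and no cell type here was known to lack the gene. Among macrophages of the same libraries Capg had the other order, with 1003 CPM in TET2KO_PDL1 and 1020 CPM in TET2KO_CTL, against 763.3 CPM in WT_PDL1 and 681.8 CPM in WT_CTL. The labels describe the deletion for the transferred T cells, not for these macrophages. Melanoma cells had 138.6 CPM in TET2KO_PDL1 and 177.4 CPM in TET2KO_CTL, against 185.1 CPM in WT_PDL1 and 191.3 CPM in WT_CTL. The macrophage markers summed in CD8 T cells were 44.3 CPM in TET2KO_PDL1 and 58.5 CPM in TET2KO_CTL. They were 47.7 CPM in WT_PDL1 and 52.0 CPM in WT_CTL. A part of stray macrophage RNA in the Capg of CD8 T cells was not tested.

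Because the states of CD8 T cells differ in frequency between libraries, Capg was also read within states, defined by marker counts in thinned cells. Mitotic cells had at least 3 UMIs over 22 mitosis genes, and were 40.7% of the thinned cells in TET2KO_PDL1 and 55.2% in TET2KO_CTL, against 31.5% in WT_PDL1 and 83.6% in WT_CTL. In mitotic cells Capg had 150.4 CPM in TET2KO_PDL1, against 306.6 CPM in WT_PDL1, a log2 fold of -1.03 (-1.17 to -0.89). Without treatment it had 145.7 CPM in TET2KO_CTL mitotic cells, against 284.0 CPM in WT_CTL ones, a log2 fold of -0.96 (-1.10 to -0.83). With anti-PD-L1, the log2 folds of knockout over wild type in the other states were -1.13 in chemokine-high, -0.77 in Tcf7-positive, -0.63 in Havcr2-positive, -0.83 in Cxcr6-positive and -0.75 in the remaining cells. Capg was thus lower in the knockout in each of the 6 states with anti-PD-L1. Untreated, it was lower in 5 of 6, and the Cxcr6-positive cells gave 0.36 (-0.60 to 1.51), on only 9 Capg UMIs in WT_CTL. Among those 5, the Havcr2-positive value of -1.64 (-2.79 to -0.31) rests on 8 Capg UMIs from 3 WT_CTL cells, and the chemokine-high value of -0.78 (-1.37 to -0.14) on 12 WT_CTL cells. With the clusters that hold most WT_CTL cells left out, the untreated log2 fold was -0.60.

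The bases in front of an internal start site of Capg are shown because Tet2 acts on methylated cytosines of CG pairs. Actg1, a gene with little difference between genotypes, is shown beside it. Each run is the 250 bases upstream of a RefSeq start site (assembly GRCm38.p6), 5′ to 3′ on the gene's strand, with every CG in capitals. The Capg run lies at chr6:72549397-72549646 on the plus strand, inside the gene's span of chr6:72538282-72562983. The Actg1 run, at chr11:120348496-120348745 on the minus strand, lies directly before its gene, whose span ends at 120348495. The runs are thus not at like positions in their genes.
Capg: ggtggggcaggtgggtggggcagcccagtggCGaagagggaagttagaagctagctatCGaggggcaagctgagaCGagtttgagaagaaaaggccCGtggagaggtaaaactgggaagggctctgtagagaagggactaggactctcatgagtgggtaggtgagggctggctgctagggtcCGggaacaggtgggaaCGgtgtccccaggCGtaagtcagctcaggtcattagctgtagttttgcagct
Actg1: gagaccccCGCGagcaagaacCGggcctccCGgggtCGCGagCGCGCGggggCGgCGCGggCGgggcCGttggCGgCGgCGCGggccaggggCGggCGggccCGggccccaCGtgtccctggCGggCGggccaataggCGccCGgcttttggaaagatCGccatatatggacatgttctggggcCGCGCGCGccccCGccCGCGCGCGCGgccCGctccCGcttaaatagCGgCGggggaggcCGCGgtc
The Capg stretch holds 7 CG pairs, and 57.0% of 32851 mouse promoters hold as many or fewer. The Actg1 stretch holds 43, a number that 0.712% of promoters reach and the highest of all the member promoters. The median was 16 CG pairs over the 41 promoters matched for 34 of the 38 genes, against 6 over all promoters. The fewest stood before one start of Gsn, with 2, one start each of Lcp1 and Myl6, with 3, and Was, with 4. All of these are fewer than for Capg. Lcp1, Myl6 and Was were not apart between genotypes, and Gsn was under the floor. Methylation was not measured here.

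The anti-PD-L1 comparisons each set 1 member apart, and each shares its libraries with the genotype comparisons. Vasp, a protein that lengthens filaments and keeps caps off their ends, had 375.6 CPM in TET2KO_PDL1 and 320.6 CPM in TET2KO_CTL, with 377.5 CPM in WT_PDL1 and 247.0 CPM in WT_CTL. WT_CTL was the low library, and the others lay close together. The log2 fold of WT_PDL1 over WT_CTL was 0.61 (0.51 to 0.71), beside a background of 31.9% of genes apart, of which 11.3% of all genes were higher and 20.5% lower. With TMM scaling, which moves the median of all genes in that comparison from -0.18 to -0.04, these shares were 14.96% and 13.6%, and Vasp was at 0.75. Without the clusters that hold most WT_CTL cells Vasp was at 0.41, under the 1.5-fold threshold. Macrophages of the same 2 libraries had 227.2 CPM of Vasp in WT_PDL1, against 155.2 CPM in WT_CTL.

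Arpc4, an Arp2/3 subunit, was the member apart between the knockout libraries, where 4.02% of all genes were apart, 2.90% higher and 1.12% lower. It had 252.0 CPM in TET2KO_PDL1 and 167.5 CPM in TET2KO_CTL, with 194.2 CPM in WT_PDL1 and 168.0 CPM in WT_CTL. The log2 fold of TET2KO_PDL1 over TET2KO_CTL was 0.59 (0.49 to 0.69), barely past the threshold, and it was 0.53 with every cell weighted equally and 0.53 without mitotic cells. Macrophages of these libraries had 303.8 CPM of Arpc4 in TET2KO_PDL1, against 183.4 CPM in TET2KO_CTL, a log2 fold of 0.73. The other Arp2/3 subunits stayed within 1.5-fold in these 4 comparisons as reported here. Under the alternatives, Actr3 passed it without the clusters that hold most WT_CTL cells, at -0.68 in TET2KO_CTL over WT_CTL and -0.61 in WT_PDL1 over WT_CTL. Arpc1a passed it without mitotic cells, at -0.64 in WT_PDL1 over WT_CTL.

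Over the 37 members the median log2 fold was 0.07 for TET2KO_PDL1 over WT_PDL1, -0.03 for TET2KO_CTL over WT_CTL, 0.11 for TET2KO_PDL1 over TET2KO_CTL and 0.07 for WT_PDL1 over WT_CTL. Over all genes past the floor these medians were 0.09, -0.10, -0.01 and -0.18. Without the clusters that hold most WT_CTL cells, the member median was -0.13 for TET2KO_CTL over WT_CTL and -0.11 for WT_PDL1 over WT_CTL, against -0.03 and -0.12 over all genes. With TMM factors these member medians were 0.05 and 0.205, against -0.02 and -0.04. Of 77 other genes of the actin cytoskeleton, 56 passed the floor. Of these, Marcksl1, a membrane protein that binds actin, was lower in TET2KO_PDL1 than in WT_PDL1, at a log2 fold of -0.75, and none was higher. That 1 gene is 1.79% of the 56, against 1.47% of all genes lower. In TET2KO_CTL over WT_CTL 4 were higher (7.14%) and none lower, against 7.89% and 6.83% of all genes. They were Ssh2, a cofilin phosphatase, at 1.23, Dock10 at 0.97, Myo1f, a class I myosin, at 0.66 and Diaph1, a formin that extends unbranched filaments, at 0.61. Those 4 were also among the 9 that were higher in WT_PDL1 than in WT_CTL, where Myo1f reached 1.33. Both comparisons have WT_CTL as their denominator. The 9 are 16.1% of the 56 and none was lower, against 11.3% and 20.5% of all genes. In TET2KO_PDL1 over TET2KO_CTL, Fmnl1, Dock8 and Tmod3 were higher, at 0.74, 0.71 and 0.60, and Marcksl1 was lower, at -0.82. These are 5.36% higher and 1.79% lower, against 2.90% and 1.12% of all genes.

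**Figure D2:**
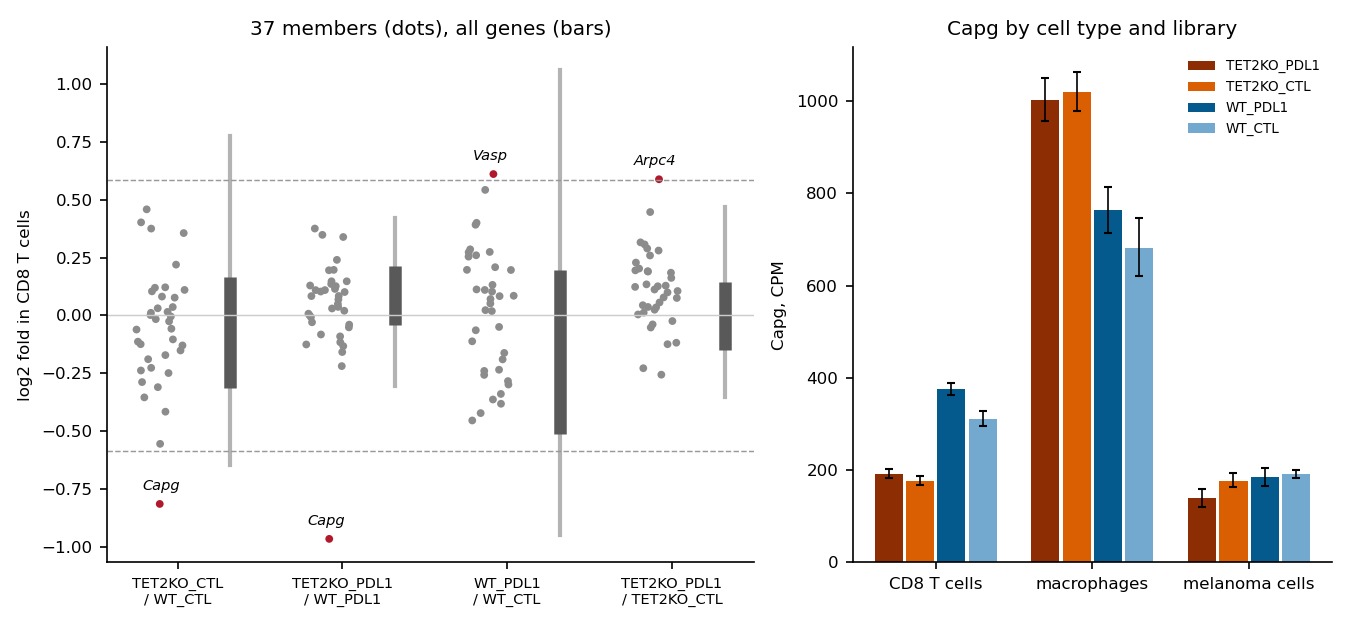
Left, log2 folds in CD8 T cells of the 37 members past the floor (dots, with members past 1.5-fold in red and named) beside all 4627 genes past the floor (thick bar 25th to 75th percentile, thin bar 5th to 95th; dashed lines 1.5-fold). Right, Capg in CPM by cell type and library with exact 95% Poisson intervals: 192.6 and 176.7 CPM in knockout CD8 T cells, against 376.3 and 311.0 CPM in wild-type ones, and the opposite order in macrophages.

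Macrophages held the same actin machinery as CD8 T cells in another mixture, with more gelsolin, destrin and filamin message and less coronin 1A. Cell types occur together in each of the 4 libraries, so they were tested within libraries with edgeR's quasi-likelihood test, called at a Benjamini-Hochberg adjusted p under 0.05 over 10484 genes. In macrophages 17 of the 38 members were higher than in CD8 T cells and 8 were lower, against 30.7% and 31.4% of all genes. The median log2 fold was 0.19 over members and -0.04 over all genes. Members were called at 2-fold or more in 23.7% of cases, against 38.5% of all genes. All 38 together took 5.94% of macrophage UMIs in TET2KO_PDL1, 6.16% in TET2KO_CTL, 5.30% in WT_PDL1 and 5.29% in WT_CTL.

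Gsn showed the widest gap, with 275.6 CPM in macrophages of TET2KO_PDL1, 207.0 CPM in TET2KO_CTL, 227.2 CPM in WT_PDL1 and 177.5 CPM in WT_CTL, against 8.05 to 17.4 CPM in CD8 T cells. Its log2 fold was 4.34 (adjusted p = 4.2e-11). The groups did not overlap. Dstn rose by 2.16 on the log2 scale (adjusted p = 4.0e-09), Vim by 2.09 (adjusted p = 8.3e-10), Capg by 1.92 (adjusted p = 1.3e-06) and Flna, a filament cross-linker, by 1.55 (adjusted p = 6.8e-09). The Capg value lies between the genotypes. Its log2 ratio of CPM was 2.38 in TET2KO_PDL1 and 2.53 in TET2KO_CTL, against 1.02 in WT_PDL1 and 1.13 in WT_CTL. Coro1b rose by 1.37 and Capza2, one of a pair of alpha subunits of the capping protein, by 1.16. Within Arp2/3, Actr2, Arpc1b, Arpc2, Arpc3 and Arpc4 rose by 0.34 to 0.75, and Arpc5l fell by 0.99. The call of Arpc4 was lost in 7 of 11 alternative settings.

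Coro1a, the coronin of blood cells, had 382.2 CPM in macrophages of TET2KO_PDL1, 408.4 CPM in TET2KO_CTL, 451.9 CPM in WT_PDL1 and 452.0 CPM in WT_CTL, against 1306 to 1595 CPM in CD8 T cells. The groups did not overlap, and the log2 fold was -1.58 (adjusted p = 3.5e-08). Ezr, ezrin, which ties actin to the membrane, fell by 1.60 on the log2 scale (adjusted p = 1.0e-08), while its relative Msn, moesin, was at 0.23 (adjusted p = 0.12). Actb rose by 0.55 and Actg1 fell by 0.74. Macrophages held 4.70% to 9.55% of the CD8 marker level of CD8 T cells, so members at or below such a share of their CD8 level could not be told from stray T cell RNA there, and Coro1a lay above it in all 4 libraries. Of 76 other actin genes tested, 31 rose and 18 fell in macrophages, 40.8% and 23.7% against 30.7% and 31.4% of all genes.

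Melanoma cells carried much less of this message, and several blood cell genes were close to absent. The 38 genes took 2.08% of melanoma UMIs in TET2KO_PDL1, 1.97% in TET2KO_CTL, 2.13% in WT_PDL1 and 1.99% in WT_CTL. Relative to CD8 T cells, 30 members were lower and 4 higher, against 35.4% and 37.7% of all genes. The median log2 fold was -1.10 over members and 0.02 over all genes. Of the 76 other actin genes, 49 were lower and 17 higher.

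Tmsb4x had 134.8 CPM in melanoma cells of TET2KO_PDL1, 328.3 CPM in TET2KO_CTL, 100.1 CPM in WT_PDL1 and 193.9 CPM in WT_CTL, against 15778 to 19238 CPM in CD8 T cells. The log2 fold was -7.06 (adjusted p = 6.4e-13). Coro1a had 8.22, 13.1, 5.74 and 12.8 CPM in melanoma cells of TET2KO_PDL1, TET2KO_CTL, WT_PDL1 and WT_CTL, a log2 fold of -7.43 over CD8 T cells (adjusted p = 4.5e-14). Lcp1, L-plastin, a bundling protein of blood cells, fell by 5.50 on the log2 scale (adjusted p = 1.2e-13) while Was fell by 5.24 (adjusted p = 2.4e-12). Melanoma cells held 0.354% to 0.920% of the CD8 marker level, Tmsb4x stood at 0.520% to 1.79% of its CD8 level and Coro1a at 0.438% to 0.999%, so these low values were not far from stray T cell RNA. The marker share cannot say how much of either was made in melanoma cells.

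The 4 members that rose in melanoma cells were Gsn at a log2 fold of 2.25 (adjusted p = 6.4e-08), Vim at 1.93 (adjusted p = 1.1e-09), Dstn at 1.53 (adjusted p = 8.9e-08) and Arpc1a at 1.503 (adjusted p = 1.7e-08). Gsn, Vim and Dstn thus rose in both cell types, and Arpc1a, one of a pair of Arp2/3 subunits, was at 0.13 in macrophages (adjusted p = 0.42). Tmsb10, the second thymosin, had 4541 CPM in melanoma cells of TET2KO_PDL1, 3160 CPM in TET2KO_CTL, 4823 CPM in WT_PDL1 and 2029 CPM in WT_CTL, and overlapped its CD8 levels of 2331 to 3059 CPM. Its log2 fold was -0.02 (adjusted p = 0.90). Actb fell by 1.52 and Actg1 by 1.26. With library totals in place of TMM factors, Tmsb10, Capza2, Flna and Arpc5l changed sign in melanoma cells, to 0.37, 0.01, 0.28 and 0.29.

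**Figure D3:**
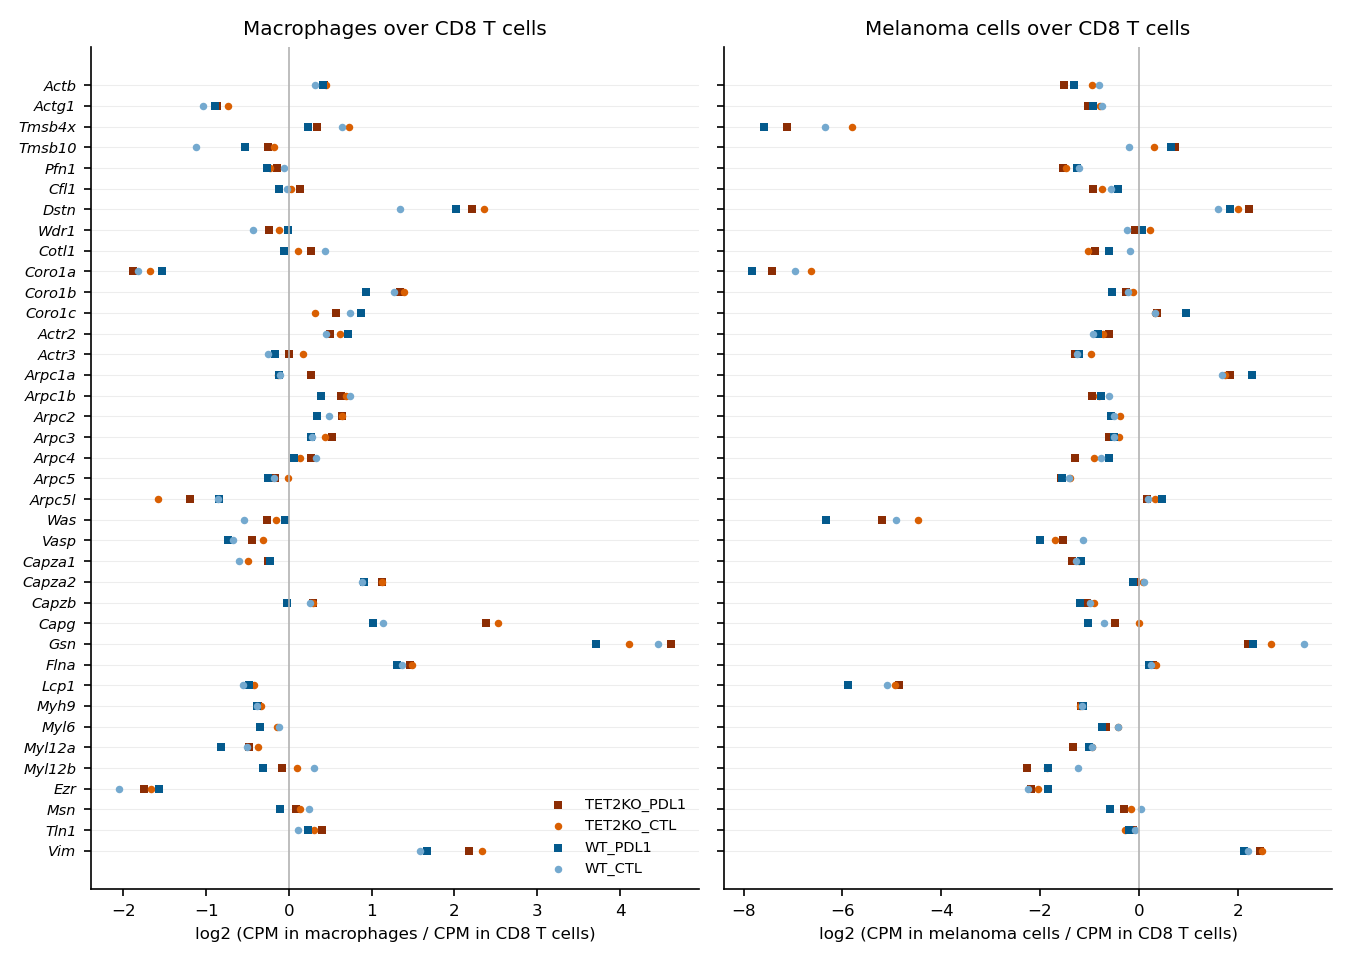
Log2 ratio of CPM in macrophages (left) and in melanoma cells (right) over CD8 T cells of the same library, 1 point per library, genes ordered by role. Gsn lies farthest right in macrophages, and Dstn, Vim and Capg follow by their mean over libraries. The Capg points lie at 1.02 and 1.13 in the wild-type libraries, against 2.38 and 2.53 in the knockout ones. Tmsb4x, Coro1a, Lcp1 and Was form a group far to the left in melanoma cells.

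Several roles are filled by a pair of related genes, and the share of one within its pair does not depend on library totals. Tmsb10 made up 97.1% of the thymosin pair in melanoma cells of TET2KO_PDL1, 90.6% in TET2KO_CTL, 97.97% in WT_PDL1 and 91.3% in WT_CTL. The same share was 4.15% to 8.82% in macrophages and 12.1% to 13.7% in CD8 T cells, so Tmsb10 was the main thymosin message of melanoma cells alone among the 3 types. The coronins split the same way, since Coro1b was 85.3% to 91.6% of the Coro1b and Coro1a pair in melanoma cells, 27.7% to 35.7% in macrophages and 5.12% to 6.51% in CD8 T cells. Coro1c against Coro1a gave 85.5% to 94.1%, 15.8% to 18.7% and 3.43% to 4.69% in the same order. Exact 95% binomial intervals of these shares, over all 11 pairs, were at most 4.79 points wide in CD8 T cells, 11.6 in macrophages and 11.6 in melanoma cells.

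Arp2/3 has paired subunits too. Arpc1a was 30.8% to 36.6% of its pair in melanoma cells, 4.17% to 5.56% in macrophages and 6.06% to 9.56% in CD8 T cells. Arpc5l was 43.9% to 53.7% in melanoma cells, 9.37% to 16.8% in macrophages and 19.0% to 24.4% in CD8 T cells. The actins divided otherwise, with Actg1 at 23.5% to 31.4% of actin in macrophages, 49.6% to 54.8% in melanoma cells and 43.2% to 52.1% in CD8 T cells. Within CD8 T cells, Actg1 was 46.5% of actin in TET2KO_PDL1 and 51.0% in TET2KO_CTL, with 43.2% in WT_PDL1 and 52.1% in WT_CTL, lower in both treated libraries. Ezr was the larger part of the ezrin and moesin pair in no library, with 36.7% to 49.1% in CD8 T cells and at most 19.5% in the other types.

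**Figure D4:**
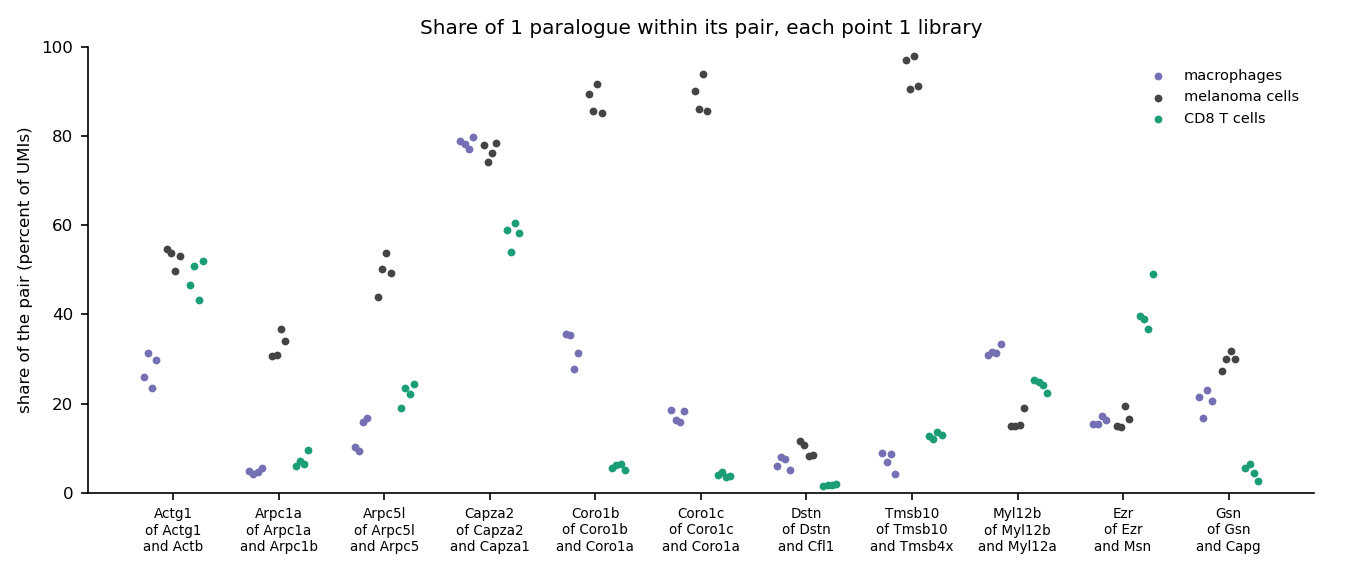
Share of the first gene within its pair (percent of the pair's UMIs), 1 point per library, for macrophages, melanoma cells and CD8 T cells. Tmsb10, Coro1b and Coro1c lie above 85% in melanoma cells and below 15% in CD8 T cells, while Capza2 and Ezr differ mainly between CD8 T cells and the other types.

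Among CD8 T cells, the 38 genes were compared between each state and the other CD8 T cells of the same library, by the same test. The states were taken in order: mitotic; chemokine-high, at least 5 UMIs of Ccl3 and Ccl4; Tcf7-positive, with the factor of memory-like cells; Havcr2-positive, with the inhibitory receptor Tim-3; and Cxcr6-positive, with a chemokine receptor of tissue T cells. No member was used to define a state. Mitotic and Tcf7-positive cells were tested over 4 libraries. WT_CTL had only 12 chemokine-high, 3 Havcr2-positive and 10 Cxcr6-positive cells, so the other 3 states were tested over 3 libraries. The states are ranges, with many cells near a limit: 71 cells of TET2KO_PDL1, 99 of TET2KO_CTL, 60 of WT_PDL1 and 84 of WT_CTL had exactly 3 mitosis UMIs, while 117, 144, 129 and 60 had 2. For the chemokine limit, 5 to 27 cells per library had exactly 5 UMIs and 11 to 32 had 4. A single UMI of Tcf7, Havcr2 or Cxcr6 can also be stray RNA.

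Cxcr6-positive cells had the most members called, with 21 higher and 1 lower, against 6.96% and 7.06% of all genes. Of 70 other actin genes tested there, 13 were higher (18.6%) and 3 lower (4.29%). Whether the high levels of many members eased their calls was not tested. With WT_PDL1 left out, 13 members were called in either direction, with DESeq2 11 and without library as a term 0. The median log2 fold was 0.22 over members and 0.01 over all genes. The steps were small. Capg rose by 0.63 on the log2 scale (adjusted p = 1.4e-07), Vim by 0.49 (adjusted p = 7.4e-08), Vasp by 0.41 (adjusted p = 3.3e-05), Myl6, a myosin light chain, by 0.38 (adjusted p = 4.6e-09) and Tmsb4x by 0.28 (adjusted p = 8.1e-17). Vim had 629.8 CPM in Cxcr6-positive cells of TET2KO_PDL1 against 458.8 CPM in its other cells, 538.3 against 372.9 CPM in TET2KO_CTL and 641.7 against 495.8 CPM in WT_PDL1. Of the Arp2/3 subunits, Actr3, Arpc1b, Arpc2, Arpc3, Arpc4 and Arpc5 rose by 0.21 to 0.32. Of 12 alternative settings, the call was lost in 9 for Actr3, 8 for Arpc4 and 7 for Arpc3. Tmsb10 was the member that fell, by 0.13. The median depths of these cells were 3560 to 5484 UMIs, against 5945 to 9863 UMIs in mitotic cells of the same libraries. An effect of depth on the shares was not tested.

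Havcr2-positive cells had 9 members higher and none lower, against 2.31% and 3.28% of all genes. Of 70 other actin genes, 3 were higher and 3 lower (4.29% each). The median log2 fold was 0.16 over members and -0.04 over all genes, a gap like that in Cxcr6-positive cells. Capg rose by 0.62 (adjusted p = 1.2e-06), Myl12b, a myosin regulatory light chain, by 0.44 (adjusted p = 0.0021) and Vim by 0.41 (adjusted p = 0.00044). Havcr2-positive cells numbered 34 to 97 per library, against 165 to 267 Cxcr6-positive ones, and DESeq2 called only 1 member there. Chemokine-high cells had 6 members higher and 3 lower, against 8.97% and 7.88% of all genes. Of 70 other actin genes, 4 were higher (5.71%) and 6 lower (8.57%). Capg rose by 0.77 (adjusted p = 1.3e-06) and Myl12a by 0.42 (adjusted p = 4.8e-05), while Tmsb10 fell by 0.56 (adjusted p = 5.1e-09). Tmsb10 had 1894 CPM in chemokine-high cells of TET2KO_PDL1 against 2864 CPM in its other cells, 1588 against 2589 CPM in TET2KO_CTL and 2285 against 3149 CPM in WT_PDL1.

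Tcf7-positive cells had 2 members higher and 7 lower, against 4.98% and 6.87% of all genes. Of 68 other actin genes, 5 were higher (7.35%) and 4 lower (5.88%). Vim fell by 0.64 (adjusted p = 2.2e-07), Capg by 0.58 (adjusted p = 0.00021), Actb by 0.42 (adjusted p = 9.2e-09), Pfn1 by 0.35 (adjusted p = 1.9e-05) and Actg1 by 0.29 (adjusted p = 0.00015). The actins varied widely between libraries, with log2 ratios of CPM from -0.87 to -0.04 for Actb and -0.69 to -0.10 for Actg1. This state had 37 to 90 cells per library, and Actb was unevenly spread over cells, as given below. Tmsb10 rose by 0.35 (adjusted p = 1.4e-05), so it moved against the actins and profilin in these cells. Gsn rose by 1.02 (adjusted p = 0.046) on at most 10 UMIs per library, and lost the call in 10 of 13 other settings. Vim had 210.0 CPM in Tcf7-positive cells of TET2KO_PDL1 against 487.4 CPM in its other cells, 311.8 against 390.8 CPM in TET2KO_CTL, 274.6 against 532.3 CPM in WT_PDL1 and 351.1 against 424.0 CPM in WT_CTL.

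Mitotic cells had 2 members higher and 8 lower, against 11.7% and 10.3% of all genes. Of 70 other actin genes, 7 were higher (10%) and 9 lower (12.9%). Capg fell by 0.61 (adjusted p = 5.9e-06), Gsn by 0.99 (adjusted p = 0.00032) and Vasp by 0.35 (adjusted p = 0.0012), and the light chains Myl6, Myl12a and Myl12b fell by 0.23 to 0.27. Cfl1, cofilin, rose by 0.14 (adjusted p = 0.018) and Coro1c by 0.31 (adjusted p = 0.029), and both lost the call in most other settings. Without WT_CTL, whose cells were mostly mitotic, 8 members rose and 12 fell. Without TET2KO_CTL 6 were called, and without TET2KO_PDL1 5. Capg was thus called in each of the 5 states, lower in mitotic and Tcf7-positive cells and higher in the other 3. These calls are not independent, because the cells each state is compared with hold all other states. Mitotic cells, where Capg was low, were 31.5% to 83.6% of the thinned cells per library.

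**Figure D5:**
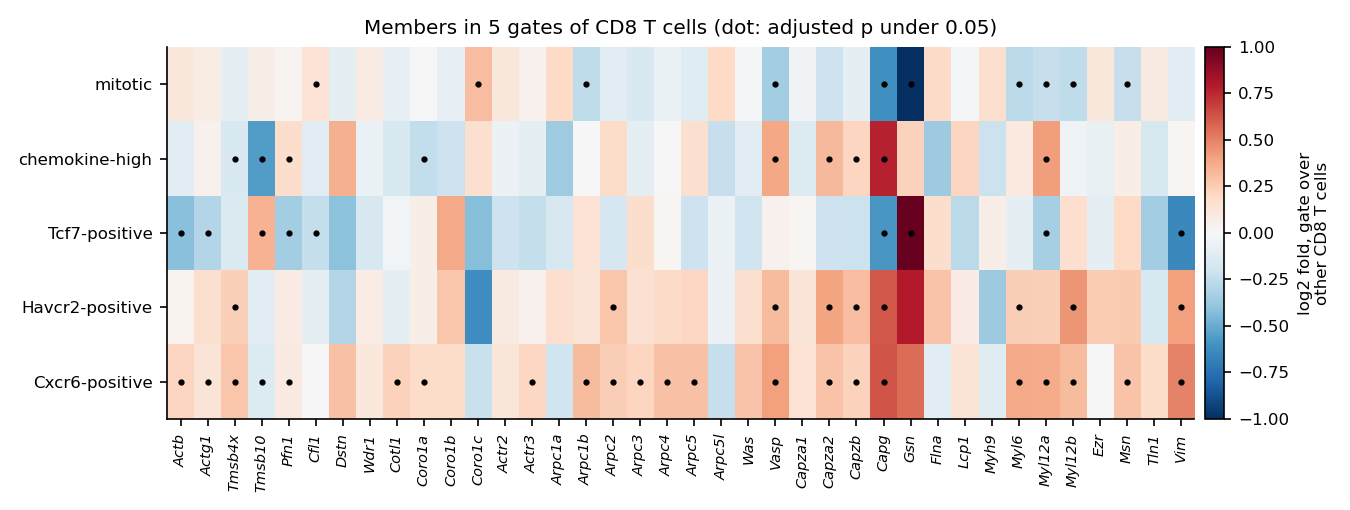
Log2 fold of each member (columns, by role) in 5 states of CD8 T cells over the other CD8 T cells, from edgeR (colour; scale from -1 to 1), with a dot where the adjusted p is under 0.05. Dots fill much of the Cxcr6-positive row (22 of 38 members), and Capg has a dot in every row.

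Actb was distributed over cells unlike the other members. In cells thinned to 2600 UMIs, the median CD8 T cell had 10 Actb UMIs in TET2KO_PDL1, 8 in TET2KO_CTL, 9 in WT_PDL1 and 9 in WT_CTL, but the 95th percentile was 59.8, 46, 67 and 42 in that order. The top 10% of cells by Actb held 39.7% of its UMIs in TET2KO_PDL1, 40.1% in TET2KO_CTL, 43.5% in WT_PDL1 and 34.7% in WT_CTL. Its variance over mean was 22.5, 18.04, 27.9 and 12.7 in those libraries, where a value of 1 is that of random sampling. Actg1, at nearly the same mean, had 3.93, 3.08, 3.85 and 2.29. Tmsb4x, with a higher mean, came next to Actb, at 11.04, 8.76, 10.7 and 7.91. The 2 actins were hardly correlated over cells, with Pearson's r of 0.06 to 0.10 per library. Actb also correlated weakly with the sum of the other members, at 0.12 to 0.16, whereas Actg1 did so at 0.41 to 0.48. Tmsb10 was weak as well, at 0.09 to 0.27, as were many members of low level. These are correlations over cells of 1 library that share its depth, and cells are not replicates. The same wide spread of Actb appeared in macrophages, at 15.99 to 36.6, which belong to the recipient mice as far as the labels say. In melanoma cells it was 10.2 to 14.5. The other listing of barcodes in the deposited tables gave CD8 T cells a variance over mean of 12.4 to 28.4.

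Serum response factor, which actin monomers restrain through its cofactor MRTF, binds the CArG box, and actin genes are among its known targets. The motif was searched on both strands in promoters from 250 bases before to 50 after each RefSeq start. The promoters of Actb, Cotl1, Coro1b and Arpc5l were not searched. The motif was found in 3 of 41 member promoters (7.32%), in 3 of 84 promoters of the other actin genes (3.57%) and in 1.63% of all 32851 promoters. The windows are shown with the box in capitals, on the gene's strand: Actg1 at chr11:120348566-120348595 (minus), Arpc4 at chr6:113377863-113377882 (plus) and Myl6 at chr10:128493040-128493069 (minus).
Actg1: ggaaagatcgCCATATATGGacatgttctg
Arpc4: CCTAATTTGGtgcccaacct
Myl6: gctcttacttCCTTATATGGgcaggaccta
The boxes began 90, 250 and 50 bases before start sites of Actg1, Arpc4 and Myl6. For Myl6 this was an internal start, with the promoter at chr10:128492960-128493259. The promoter at the upstream end of Myl6, chr10:128493837-128494136, held no box. A match in letters is a description, and binding was not measured.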

How the data were processed

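RNA of single cells was sequenced with the Chromium 3′ kit, per the labels' protocols. The authors deposited 4 tables, 1 per library, whose values are UMI counts without normalization. The submitters' processing notes name the build mm10 and, for the series, HISAT2, HTSeq, DESeq2, Bowtie2, bedtools, Genrich 0.5 and Trim Galore 0.5.0. For these tables the counter and the cell calling are not stated. Each table lists most barcodes in 2 forms with different counts. Rows whose barcode has 2 hyphens were used, and the other listing was an alternative. Library totals were 11835704 to 16209103 UMIs. Pairs of libraries shared 1 to 10 barcodes. Barcodes under 500 genes or over 10% mitochondrial UMIs were dropped, which left 1277 in TET2KO_PDL1, 2221 in TET2KO_CTL, 1603 in WT_PDL1 and 2297 in WT_CTL. Doublets were not called or removed; an alternative kept only CD8 T cells with at most 2 macrophage or melanoma UMIs.

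Cells were clustered (scanpy 1.11.5, igraph 0.11.9, 2000 variable genes without the members, 30 components, Leiden resolution 1.0) and named from marker lists, and UMIs were summed by library and cell type. CD8 clusters were those with CD8 and CD3 levels of at least 0.5 times the highest. Cell types and states were tested with edgeR 4.0.16 on the counts, with library as a term and Benjamini-Hochberg adjustment over all genes. The test of macrophages over CD8 T cells was also run on simulated counts with known changes. The fits for states were not. States were read in cells thinned to 2600 UMIs, which left out 21 cells of TET2KO_PDL1, 151 of TET2KO_CTL, 77 of WT_PDL1 and 218 of WT_CTL. Members, lists and states were chosen with earlier results of these data known. All members may be named, and of other genes those past the threshold, at most 10 per comparison. The fits over 3 libraries and the omission of 2 WT_CTL clusters were added after seeing the data.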

Additional observations from a re-analysis of the deposited data

Results flagged for a closer look

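Of 152 ratios checked for a library far from the other 3, 8 stood out, and chance alone gives about 1 in 20. For macrophages over CD8 T cells these log2 ratios were 0.26 for Arpc1a in TET2KO_PDL1 (others -0.13 to -0.11), -0.027 for Capzb in WT_PDL1 (others 0.26 to 0.29) and -0.34 for Myh9 in TET2KO_CTL (others -0.38). For melanoma cells over CD8 T cells they were 0.96 for Coro1c in WT_PDL1 (others 0.32 to 0.37) and -1.34 for Myl12a in TET2KO_PDL1 (others -1.02 to -0.95). For mitotic over other CD8 T cells they were 0.25 for Actr3 in WT_CTL (others 0.02 to 0.05), -0.019 for Arpc2 in WT_CTL (others -0.11 to -0.09) and 0.21 for Was in WT_PDL1 (others -0.11 to -0.07).

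Some log2 folds between libraries had opposite signs in 2 cell types, and none of these differences was tested. Capg was at -0.97 in CD8 T cells and 0.39 in macrophages for TET2KO_PDL1 over WT_PDL1, and at -0.82 and 0.58 for TET2KO_CTL over WT_CTL. Tmsb4x was at 0.037 in CD8 T cells and -1.28 in melanoma cells for TET2KO_PDL1 over TET2KO_CTL, and at 0.29 and -0.95 for WT_PDL1 over WT_CTL. Its melanoma levels are those near stray T cell RNA. Vasp was at 0.61 in CD8 T cells and -0.25 in melanoma cells for WT_PDL1 over WT_CTL.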

How the results depend on the processing

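No paired analysis was possible because each single-cell group is 1 library and their labels carry no replicate numbers. Capg stayed lower in the knockout under all 10 alternatives of each genotype comparison, at -1.02 to -0.85 with anti-PD-L1 and -0.84 to -0.60 without. The count of members apart, 1 in each comparison, changed as follows, and the cause was not tested. TET2KO_PDL1 over WT_PDL1 gave 2 with no floor. TET2KO_CTL over WT_CTL gave 2 without mitotic cells and 3 without the clusters holding most WT_CTL cells. WT_PDL1 over WT_CTL gave 2 with TMM factors, 2 with no floor and 4 without mitotic cells. TET2KO_PDL1 over TET2KO_CTL gave 0 with cells weighted equally, 0 without mitotic cells and 0 in cells with at most 2 macrophage or melanoma UMIs.

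Members called with 1 library left out ranged from 21 to 24 in macrophages (25 with all), 34 to 34 in melanoma cells (34), 5 to 20 in mitotic cells (10), 5 to 8 in chemokine-high cells (9), 5 to 11 in Tcf7-positive cells (9), 2 to 10 in Havcr2-positive cells (9) and 13 to 18 in Cxcr6-positive cells (22). The lowest counts came without TET2KO_PDL1 in mitotic and Tcf7-positive cells, and without WT_PDL1 in the chemokine-high, Havcr2-positive and Cxcr6-positive ones. DESeq2 called 4 in chemokine-high, 5 in Tcf7-positive, 1 in Havcr2-positive and 11 in Cxcr6-positive cells. Without library as a term, 1 was called in mitotic, 1 in chemokine-high and 0 in each of the other 3 states. Havcr2-positive cells gave 4 with no filter on low counts, and mitotic cells 16 at a limit of 2 UMIs. Of 836 single-gene values for cell types, 796 kept their side of the threshold, 27 lost the call, 10 gained it and 3 changed sign with a call in either setting: with library totals, melanoma over CD8 log2 folds were 0.37 for Tmsb10, 0.012 for Capza2 and 0.28 for Flna. For states, 210 of 2356 lost the call and 80 gained one. Uncalled values near 0 also changed sign, such as Arpc5l in melanoma cells and Actr3, Arpc1a and Arpc5 in macrophages. Depth limits Gsn, Dstn and Flna most, the members of lowest level in CD8 T cells.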
